A study of Mus musculus and Homo sapiens with 56 samples.

Results

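Genes named Zfp followed by a number encode zinc finger proteins, most of which carry runs of finger modules that read DNA. They were taken here as expressed in mouse embryonic stem cells when their read counts summed to 1000 or more over the 4 RNA-seq libraries, leaving out Zfp42, Zfp57 and Zfp352. By this rule 216 of 52459 annotated genes were members, out of 374 genes with such a name. The counts that chose the members were summed over all libraries, so the sum itself is a description: Zfp30, Zfp952 and Zfp169 lay just above it with 1005, 1022 and 1023 counts, and Zfp182, Zfp27 and Zfp689 just below it with 996, 994 and 992 counts. Of the other 158 genes with such a name, 156 were below the sum, 7 of them without a count in any library, and 2 were left out by name. All 216 members passed the filter on low counts.

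The series concerns N6-methyladenosine (m6A), a mark on RNA, and its link to H3K9me2, a histone mark of repressed chromatin. The compared cells were mouse embryonic stem cells of a line labelled D395A and of the line E14TG2a, labelled WT, both untreated, both kept on gelatin in an N2B27-based medium with LIF, serum replacement, the MEK inhibitor PD0325901 and the GSK3β inhibitor CHIR99021. D395A is known as a METTL3 substitution that removes catalysis, METTL3 being the main writer of m6A in messenger RNA. The labels do not say whether the D395A line is a single clone. RNA-seq of rRNA-depleted RNA gave 12743677 and 18151353 counts in D395A replicates 1 and 2, and 13953069 and 19246342 counts in WT replicates 1 and 2. The m6A peaks came from chromatin RNA pulled down with an m6A antibody, in 1 list per genotype: the D395A list stands for 1 immunoprecipitated library and 1 input, the WT list for 2 of each.

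Many zinc finger genes of the mouse carry a KRAB domain, which recruits TRIM28 and through it SETDB1 and other silencing factors to DNA, above all to retroviral repeats. Such genes arose by repeated local duplication, sit in chromosome clusters of close relatives and often keep the whole finger array in a long last exon. Others are conserved single genes whose proteins regulate transcription, bind RNA or act on ribosomes. In messenger RNA, m6A is known to be enriched in long internal exons and in the last exon around the stop codon.

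The libraries were checked for facts that touch every result. Mettl3 itself had 30.5 and 33.8 CPM (counts scaled to a common library size) in D395A and 36.1 and 35.5 CPM in WT, and its log2 fold change of -0.15 did not pass the test (adjusted p = 0.114, edgeR). A codon change leaves the transcript countable, so this does not check the genotype. Of 9 embryonic stem cell markers, 8 were lower in D395A, none was at 0, and their summed level was 2547 and 2557 CPM in D395A against 5928 and 5823 CPM in WT. Markers of fibroblasts summed to 14.4 and 14.4 CPM in D395A and 28.5 and 28.6 CPM in WT, and those of extraembryonic endoderm to 8.2 and 7.4 CPM in D395A and 14.2 and 13.9 CPM in WT, with Afp at 0. The 5 neural markers summed to 65.1 and 62.7 CPM in D395A and 59.4 and 54.5 CPM in WT, with 4 of them higher, and the 6 trophectoderm markers to 34.9 and 32.4 CPM in D395A and 40.6 and 38.3 CPM in WT, with 3 higher and 1 lower. The part of these shifts in the results below was not tested. In bulk RNA, fewer cells of a kind and less RNA per cell cannot be told apart, nor can the substitution and other differences between the lines or their libraries.

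Expressed zinc finger genes were lower more often than higher in D395A cells. Of the 216 members, 104 (48.1%) were lower, 70 (32.4%) were higher and 42 were not called. A call needed an adjusted p under 0.05 in edgeR's quasi-likelihood fit, with the Benjamini-Hochberg method applied over all 17778 tested genes. Over all tested genes 34.3% were lower and 36.8% higher, and among the 8829 other genes of the same count sum 42.0% were lower and 33.5% higher. Members had a median log2 fold change of -0.14, those other genes -0.07 and all tested genes 0.00. At least 2-fold changes were lower in 26 of the 216 members and higher in 21. Among the 8829 other genes of the same count sum 553 were lower and 642 higher by this measure. Over all tested genes, which include those of lower counts, 11.9% were lower and 20.0% higher. Most genes were called in this comparison (71.1% in either direction). Without D395A replicate 1 the members' median was -0.08, and without D395A replicate 2 it was -0.18. Nothing in the labels says that replicates came from different cultures, and the p-values then reflect the spread between libraries alone.

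Members whose exons overlap those of an antisense gene were higher more often than the others. Among the 171 members without such overlap, 91 were lower and 50 higher, with a median log2 fold change of -0.23. Over all tested genes without overlap 37.1% were lower and 32.3% higher. Among the 45 overlapped members 13 (28.9%) were lower and 20 (44.4%) higher, with a median of 0.09, beside 27.7% lower and 47.2% higher over all tested genes with such overlap. Among the other genes of the same count sum 40.7% were lower and 33.8% higher with such overlap, and 42.6% and 33.4% without it. Their medians were -0.06 with and -0.07 without such overlap. The shift of overlapped members was thus also seen over all tested genes, but barely among other genes of the same count sum. How the counting treated strand is not stated, so reads of an overlapped member and its antisense partner cannot be told apart and its values are uncertain.

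The rule on the count sum bears on the members with the largest changes. Zfp618, Zfp629 and Zfp521 reached 1000 counts through the D395A libraries and had 14 and 22, 30 and 47, and 35 and 51 counts in the 2 WT libraries. Zfp640, at the other end, reached it through the WT libraries and had 98 and 135 counts in the D395A libraries. A gene with few counts in 1 group becomes a member only where the other group is high, so these values are a description. Zfp618, whose human counterpart binds UHRF2, a reader of modified cytosine, had 31.8 and 32.5 CPM in D395A against 1.04 and 1.18 CPM in WT. Zfp629 had 52.1 and 54.7 CPM in D395A against 2.24 and 2.52 CPM in WT. Both D395A libraries stood above both WT libraries in each case, which the choice of the largest changes required. Over all tested genes the groups did not overlap, in either direction, for 85.1%. Log2 fold changes were 4.83 ± 0.15 for Zfp618 and 4.47 ± 0.12 for Zfp629 (SE). Zfp521 and Zfp423 are paralogs that bind early B-cell factors and act in neural and fat cell development. Zfp521 had 41.9 and 49.4 CPM in D395A and 2.61 and 2.73 CPM in WT, a log2 fold change of 4.09 ± 0.13. Zfp423 had 35.6 and 37.9 CPM in D395A and 7.01 and 6.96 CPM in WT, a log2 fold change of 2.40 ± 0.10. Both paralogs were higher, each with no overlap between the groups. Zfp703, a corepressor amplified in human breast cancer, had 78.5 and 67.1 CPM in D395A and 8.58 and 7.12 CPM in WT, with 13.5% of its exonic bases overlapped. Zfp362, Zfp768, Zfp948 and Zfp869 had log2 fold changes of 2.46, 1.80, 1.63 and 1.61.

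The members with the largest decrease came mainly from clusters. Zfp640 of chromosome 13 had 7.44 and 7.16 CPM in D395A against 42.1 and 44.6 CPM in WT, a log2 fold change of -2.57 ± 0.10. Zfp951 of chromosome 5 was the isolated exception: it had 9.87 and 9.29 CPM in D395A against 50.6 and 49.1 CPM in WT, a log2 fold change of -2.38 ± 0.09. No other isolated member was at least 2-fold lower. Zfp981, Zfp600, Zfp978, Zfp980 and Zfp987, all from 1 cluster of chromosome 4, had log2 fold changes of -2.16, -2.02, -1.92, -1.66 and -1.44. Zfp229 of chromosome 17 had -1.71. Zfp961 of chromosome 8, Zfp459 and Zfp264 had -1.78, -2.13 and -1.89, with 4.18%, 12.5% and 6.18% of their exonic bases overlapped.

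**Figure D1:**
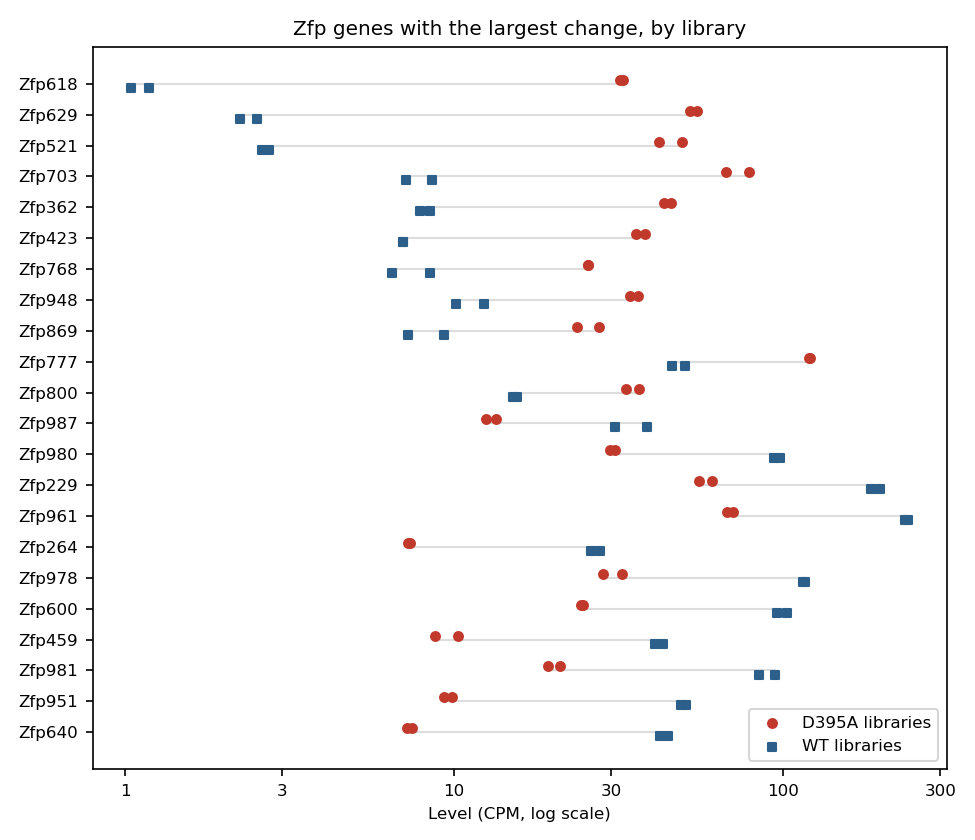
Level in CPM (log axis) of 22 members, with red circles for the 2 D395A libraries and blue squares for the 2 WT libraries, ordered by log2 fold change. They have the largest changes in each direction, taken separately among members with and without antisense overlap of exons. Those without overlap were chosen to have no overlap between the groups, which held for 85.1% of all tested genes. In every row the 2 D395A values lie on 1 side of both WT values, from Zfp618 at 31.8 and 32.5 CPM in D395A and 1.04 and 1.18 CPM in WT to Zfp640 at 7.44 and 7.16 CPM in D395A and 42.1 and 44.6 CPM in WT.

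Members were next grouped by position. A cluster was a run of at least 3 genes named Zfp and a number, expressed or not, with gaps of at most 500 kb. By this rule 125 members lay in clusters and 91 were isolated. Of the clustered members 74 (59.2%) were lower and 36 (28.8%) higher, with a median log2 fold change of -0.27. Of the isolated members 30 (33.0%) were lower and 34 (37.4%) higher, with a median of -0.02. Over all tested genes 34.3% were lower and 36.8% higher, and over the other genes of the same count sum 42.0% and 33.5%. At least 2-fold lower calls were 25 of 125 among clustered members and 1 of 91 among isolated ones. Calls at least 2-fold higher were 11 of 125 and 10 of 91. By this measure 11.9% of all tested genes were lower and 20.0% higher. Of the 8829 other genes of the same count sum 553 were lower and 642 higher. Without the chromosome 4 cluster, 60 of 111 clustered members were lower and 36 higher, with a median of -0.22. Within members free of opposite-strand overlap, the medians were -0.34 for 107 clustered and -0.06 for 64 isolated members. Members of a cluster share their neighbourhood and often their sequence, so they are not independent of each other.

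Clusters differed in direction. Of the 32 clusters, 19 held at least 3 members, and 13 of these had a median log2 fold change below 0. All members were lower in 4 clusters, on chromosomes 4, 13, 7 and 8, and all were higher in 3, on chromosome 6 and at 2 places on chromosome 7. The cluster of chromosome 17 between 21.0 and 23.6 Mb had 8 of 11 members lower and 1, Zfp948, higher, with a median of -0.96, and of the 20 other tested genes of its span 9 were lower and 4 higher, with a median of -0.48. A cluster of chromosome 7 between 42.5 and 43.6 Mb had 6 of 7 members lower and none higher, with a median of -0.69, and of the 13 other tested genes of its span 11 were lower and none higher, with a median of -1.05. A cluster of the same chromosome between 127.2 and 127.9 Mb, which holds Zfp629 and Zfp768, had 6 of 6 members higher, with a median of 0.96, and 3 of its members were overlapped. Of the 33 other tested genes there 16 were higher and 3 lower, with a median of 0.30. Other tested genes of a span did not always move with the members. In the chromosome 7 cluster of Zfp787 all 3 members were higher. Its 8 other tested genes had 5 lower and none higher, with a median of -0.72. In the cluster of Zfp264 all 3 members were lower, but the 3 other tested genes had a median of 0.17, with 1 lower and none higher. In that of Zfp606 3 of 4 members were lower, but of 11 other tested genes 6 were higher and none lower (median 0.39). Chromosome 8 was lower as a whole: its 500 other genes of the same count sum had a median of -0.43, beside -0.50 for the 17 members there. The part of this shift in the lower values of its 2 clusters was not tested.

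Members of the same cluster could differ in direction. In the chromosome 17 cluster Zfp229 had 55.5 and 60.8 CPM in D395A against 184.7 and 196.5 CPM in WT, a log2 fold change of -1.71 ± 0.07 (adjusted p = 3.1e-11, edgeR). Zfp944, Zfp945, Zfp760 and Zfp820 were also at least 2-fold lower. Zfp948 of the same cluster had 34.1 and 36.2 CPM in D395A against 10.1 and 12.3 CPM in WT, a log2 fold change of 1.63 ± 0.10. The RNA of Zfp51 and Zfp13 did not pass in either direction, with log2 fold changes of 0.10 and 0.00. A like exception stood in a cluster of chromosome 8, where Zfp930, Zfp866 and Zfp868 were lower (log2 fold changes -1.03, -0.98 and -0.93) and Zfp869 was higher, with 23.5 and 27.6 CPM in D395A and 7.23 and 9.32 CPM in WT. Zfp869 had no D395A peak and a WT peak of 19.1-fold in its last exon. In the cluster of chromosome 13 between 66.7 and 67.8 Mb, Zfp640 and Zfp459 were over 4-fold lower, while Zfp65 and Zfp748 had log2 fold changes of 0.08 and 0.08 and did not pass. In the chromosome 7 cluster with 6 of 6 members higher, the values ran from 0.16 for Zfp553, with 158.5 and 166.9 CPM in D395A and 147.0 and 143.8 CPM in WT, to 4.47 for Zfp629.

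**Figure D2:**
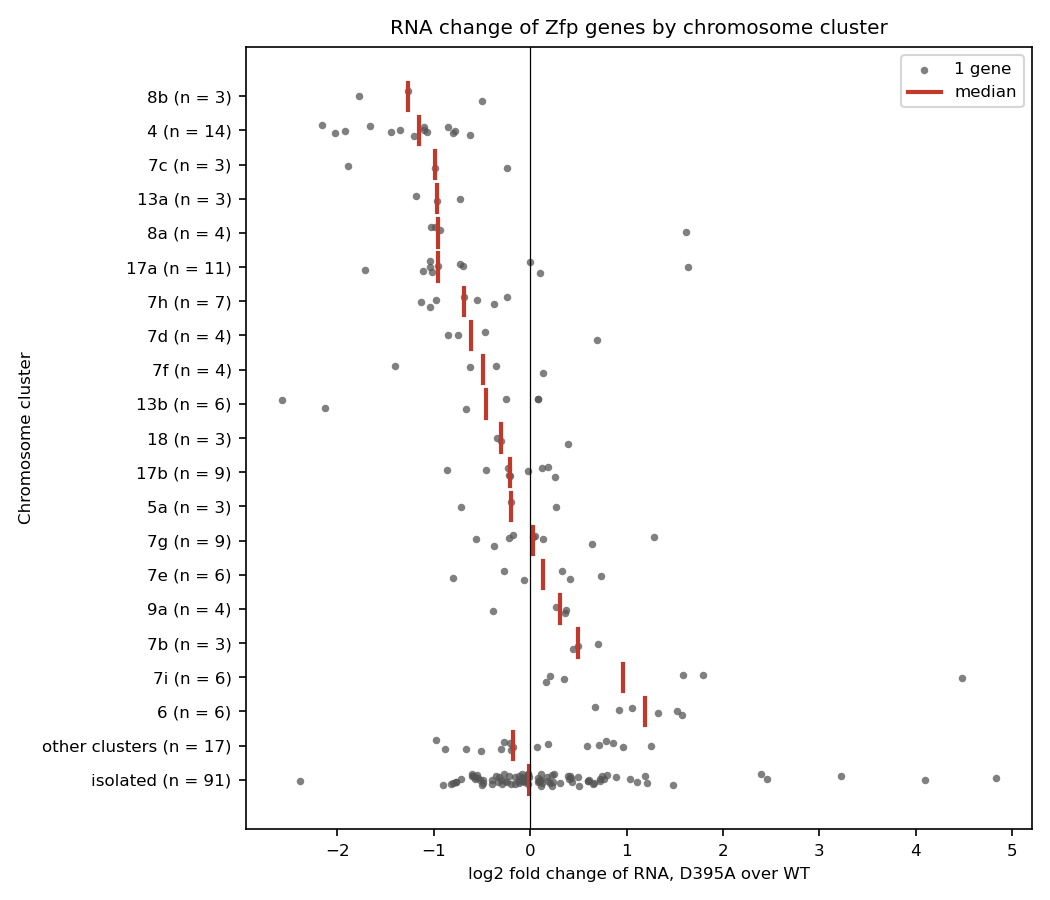
Log2 fold change of RNA, D395A over WT, for each member (grey points) in the 19 clusters with at least 3 members, named by chromosome and ordered by their median (red bars), and in other clusters and isolated members. All 14 points of the chromosome 4 cluster lie below 0 and all 6 of the chromosome 6 cluster above it, while isolated members spread on both sides of a median of -0.02.

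The largest cluster with all members lower was that of distal chromosome 4, an array of KRAB zinc finger genes that expanded in the mouse and is known for its link to retroviral elements. It spans 145.5 to 147.8 Mb (mm10) and holds 18 genes of the name pattern, 14 of them members. All 14 were lower, 10 of them at least 2-fold, with log2 fold changes between -2.16 and -0.62 and a median of -1.15. Over all tested genes 34.3% were lower, and 11.9% at least 2-fold lower. Zfp600 had 24.6 and 24.3 CPM in D395A against 95.9 and 102.7 CPM in WT, and its log2 fold change was -2.02 ± 0.07 (adjusted p = 1.21e-11, edgeR). Zfp990, among the members with most RNA per length, had 99.3 and 95.8 CPM in D395A against 215.6 and 231.8 CPM in WT. Zfp979 changed least, with 104.8 and 104.1 CPM in D395A against 148.7 and 171.9 CPM in WT. In each of the 14, both D395A libraries were below both WT libraries (over all tested genes the groups did not overlap, in either direction, for 85.1%). None of the 14 shares exonic bases with a gene on the other strand, but the exons of 7 lie wholly inside the body of one. The other 46 tested genes of the span had a median log2 fold change of -0.81, with 22 lower and 7 higher, while the other genes of the same count sum on the chromosome had a median of -0.06. The genes are close copies, so reads can be shared or lost among them and the value of any single copy is uncertain.

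The promoters of these genes were alike as well. RefSeq promoters (GRCm38.p6, the assembly behind mm10; 250 bases before to 50 after the start) matched 157 of the 216 members within 1000 bases, among them 9 of the 14 in the chromosome 4 cluster. Aligned in pairs, the 9 had a median identity of 76.2% (59.6% to 94.8%), whereas the 5 matched promoters of the chromosome 6 cluster had a median of 52.4% (46.4% to 55.1%). The 150 bases before the start are shown for 4 copies that keep an element in which a CCAAT box, read on the other strand, runs into a GC box (TATTGGGCGGG, in capitals), and for Zfp534, where only the CCAAT box (ATTGG, in capitals) is left; each reads 5′ to 3′ on the strand of the gene and ends at the base before the start.
Zfp600, chr4:146156677-146156826, plus strand: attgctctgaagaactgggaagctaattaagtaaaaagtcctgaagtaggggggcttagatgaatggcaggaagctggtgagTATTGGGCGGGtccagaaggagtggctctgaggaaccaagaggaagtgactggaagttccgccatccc
Zfp979, chr4:147642509-147642658, minus strand: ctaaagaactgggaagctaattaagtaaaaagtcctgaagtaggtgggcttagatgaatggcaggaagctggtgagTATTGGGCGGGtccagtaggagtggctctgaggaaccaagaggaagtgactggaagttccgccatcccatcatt
Zfp980, chr4:145670547-145670696, plus strand: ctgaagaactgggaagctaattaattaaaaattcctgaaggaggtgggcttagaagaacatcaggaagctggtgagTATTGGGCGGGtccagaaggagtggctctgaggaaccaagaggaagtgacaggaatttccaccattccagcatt
Zfp985, chr4:147553127-147553276, plus strand: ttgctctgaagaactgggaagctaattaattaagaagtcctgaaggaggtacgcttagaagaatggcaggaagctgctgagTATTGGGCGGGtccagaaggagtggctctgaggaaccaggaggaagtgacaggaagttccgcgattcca
Zfp534, chr4:147702632-147702781, minus strand: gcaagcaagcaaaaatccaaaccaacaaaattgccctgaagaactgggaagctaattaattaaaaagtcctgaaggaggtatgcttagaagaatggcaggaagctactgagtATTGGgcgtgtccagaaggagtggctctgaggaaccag

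The joined element TATTGGGCGGG, searched on both strands of the 300 bases and chosen after these sequences were seen, was present in 7 of the 9 matched promoters of the cluster, between 47 and 87 bases before the start. It was present in 3 of 6305 promoters of other genes with the same count sum (0.0476%) and in 14 of all 16723 matched promoters (0.0837%). A CCAAT box (CCAAT or its complement, which the joined element contains) was present in all 9, against 51.0% of all matched members and 39.7% of those other genes. The 9 promoters were poor in CG dinucleotides, with a median of 5 in 300 bases (3 to 9), against 15 over all matched members and 23 over the other genes of the same count sum. The ETS core (CCGGAAG), the NRF1 core, the E-box CACGTG, the CRE TGACGTCA and the TATA box TATAAA were searched in the same way. None of these 5 was found in the 9 promoters, and they were present in 19.1%, 3.18%, 8.28%, 2.55% and 8.28% of all matched members, against 22.1%, 2.67%, 11.5%, 3.90% and 5.52% of the other genes of the same count sum. A match is a description of these letters and not evidence of a bound factor.

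Over all matched members, the promoters of lower and higher members also differed in makeup. The 72 lower members had a median of 12 CG dinucleotides, and a GC box (GGGCGG, either strand) was present in 41.7% of them. The 51 higher members had a median of 20, with a GC box in 66.7%. A CCAAT box was present in 62.5% of the lower and 33.3% of the higher members. These are descriptions with no test, and cluster members count more than once in them.

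The chromosome 6 cluster between 47.8 and 48.6 Mb moved the other way. All 6 members, Zfp398, Zfp282, Zfp212, Zfp777, Zfp746 and Zfp775, were higher, 4 of them at least 2-fold. Their log2 fold changes were between 0.67 and 1.57, with a median of 1.19. Over all tested genes 36.8% were higher, and 20.0% at least 2-fold higher. Zfp746, also called PARIS, a repressor of the metabolic coactivator gene Ppargc1a, had 101.3 and 103.6 CPM in D395A against 35.1 and 34.0 CPM in WT, a log2 fold change of 1.57 ± 0.07 (adjusted p = 7.25e-11, edgeR). Zfp282, whose human counterpart represses a retroviral promoter, had 78.3 and 81.7 CPM in D395A against 27.4 and 28.2 CPM in WT. Zfp777 and Zfp775 have 2.59% and 12.3% of exonic bases overlapped, and the other 4 have none. Of the 14 other tested genes of the span 10 were higher and none lower, with a median of 0.61, beside 0.14 over the other genes of the same count sum on the chromosome. The promoters of this cluster were richer in CG, with a median of 21, and are shown for 2 members, with the GC box in capitals where it is present.
Zfp398, chr6:47835511-47835660, plus strand: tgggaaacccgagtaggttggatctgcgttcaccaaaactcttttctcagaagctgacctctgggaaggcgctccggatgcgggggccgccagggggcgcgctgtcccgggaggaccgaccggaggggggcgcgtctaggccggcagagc
Zfp746, chr6:48086594-48086743, minus strand: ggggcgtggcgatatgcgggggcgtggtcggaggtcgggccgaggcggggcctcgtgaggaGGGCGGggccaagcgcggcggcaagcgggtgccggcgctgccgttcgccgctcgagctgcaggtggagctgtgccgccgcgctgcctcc

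**Figure D3:**
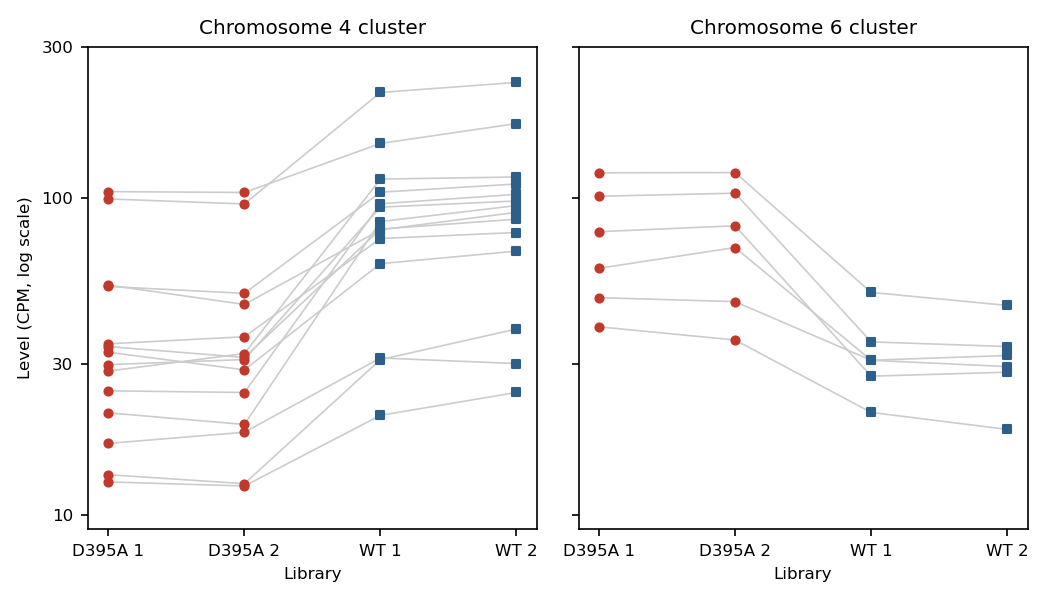
Level in CPM (log axis) of every member of the chromosome 4 cluster (left) and of the chromosome 6 cluster (right) in each library, D395A as red circles and WT as blue squares, with a line per gene. All 14 genes on the left are lower in both D395A libraries than in both WT libraries, and all 6 on the right are higher.

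Members with a described role were listed whatever their value, and Zfp335, Zfp568 and Zfp809 among them lie in clusters. Of 36 such names 31 were members, of which 10 were lower, 9 higher and 12 not called, beside 34.3% lower and 36.8% higher over all tested genes. Those known to act on the pluripotent state are given singly. Zfp281, a factor of the exit from the naive state, had 86.7 and 97.6 CPM in D395A and 132.8 and 141.0 CPM in WT, a log2 fold change of -0.57 ± 0.07. Zfp217, which binds METTL3 in embryonic stem cells, had 143.7 and 153.4 CPM in D395A and 179.1 and 167.0 CPM in WT, a log2 fold change of -0.22 ± 0.06 that lost its call without WT replicate 1 (-0.18, adjusted p = 0.158, edgeR). Zfp296, a partner in reprogramming, had 83.2 and 84.0 CPM in D395A and 89.5 and 91.8 CPM in WT and did not pass (adjusted p = 0.106). Zfp706, which is named for its level per length and is needed to leave the pluripotent state, was lower, with a log2 fold change of -0.59 ± 0.06. Zfp207, a spindle and splicing factor, was lower, with a log2 fold change of -0.39.

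Zfp644 and Zfp462 had small differences. Zfp644, which binds G9a and GLP, had 165.6 and 172.7 CPM in D395A and 144.7 and 145.0 CPM in WT, a log2 fold change of 0.22 ± 0.06 (adjusted p = 0.00391, edgeR), a call lost without WT replicate 1 (adjusted p = 0.098) or WT replicate 2 (adjusted p = 0.0921). Zfp462, another partner of these enzymes, had 210.4 and 261.0 CPM in D395A and 211.5 and 208.3 CPM in WT. Its log2 fold change of 0.17 ± 0.08 did not pass (adjusted p = 0.0848), but without D395A replicate 1 it was 0.35 and passed (adjusted p = 7.61e-11). Zfp592, Zfp687 and Zfp532 bind the chromatin reader ZMYND8 together. The first and second were higher, with log2 fold changes of 0.76 and 0.43, and Zfp532 had 0.10 ± 0.07 and did not pass, except without D395A replicate 1 (0.20, adjusted p = 0.000934).

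Members known to silence repeats or imprinted genes are given singly, as no list of them was tested. Zfp568, which represses a placental Igf2 transcript, had 207.1 and 234.1 CPM in D395A and 325.0 and 326.9 CPM in WT, a log2 fold change of -0.56 ± 0.07 (adjusted p = 5.65e-06, edgeR). Zfp445, which maintains imprints, had 119.8 and 129.6 CPM in D395A and 134.8 CPM in both WT libraries, and did not pass (adjusted p = 0.13), except without D395A replicate 2 (log2 fold change -0.17, adjusted p = 0.0117). Zfp809, which silences retroviruses, had 68.5 and 74.8 CPM in D395A and 66.7 and 69.8 CPM in WT, and did not pass (adjusted p = 0.371), except without D395A replicate 1 (log2 fold change 0.16, adjusted p = 0.0423). Zfp638, which brings silencing to unintegrated viral DNA, had 294.2 and 299.1 CPM in D395A and 291.1 and 310.7 CPM in WT, overlapping between the groups.

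Members that bind RNA or act on ribosomes moved in both directions. Zfp346, which binds double-stranded RNA, was lower (log2 fold change -0.77), as was Zfp622, a maturation factor of the large ribosomal subunit (-0.27). Zfp326, which couples transcription to splicing, was higher (0.44). Zfp598, a ubiquitin ligase at collided ribosomes, had 120.8 and 126.0 CPM in D395A and 113.6 and 113.9 CPM in WT and did not pass (adjusted p = 0.0915), except without D395A replicate 1 (log2 fold change 0.18, adjusted p = 0.00605). Zfp106, an RNA-binding protein needed by motor neurons, had the most RNA per length of all members in D395A, at a level of 65.4 CPM per kb of exon, and 71.2 in WT, where only Zfp978 (23.6 in D395A, 89.9 in WT) had more, and it did not pass (adjusted p = 0.147), except without D395A replicate 2 (log2 fold change -0.18, adjusted p = 0.000315). Antisense overlap covers 26.1% of its exonic bases. Over all members the median level per length was 8.34 CPM per kb in D395A and 8.42 in WT, against 13.9 in both groups over the other genes of the same count sum.

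A list of silencing partners of KRAB zinc finger proteins and other H3K9 writers was called about as often in each direction as genes of like counts. It also holds Dnmt1, Uhrf1, Mettl3 and the member Zfp644. Of its 25 genes in the count data, 12 were lower, 8 higher and 5 not called. Over the other genes of the members' count sum 42.0% were lower and 33.5% higher, and over all tested genes 34.3% and 36.8%. The largest log2 fold changes of the list were 1.10 for Chd3, -1.06 for Fam208a, of which 12.9% of exonic bases are overlapped, and -1.02 for Atf7ip2. Trim28, the corepressor that KRAB domains bind, averaged 679.6 ± 13.6 CPM in D395A and 892.1 ± 18.1 CPM in WT (SD, n = 2 libraries each), a log2 fold change of -0.39 ± 0.07 (SE). Setdb1, its H3K9 methyltransferase, had -0.27 ± 0.07. Ehmt2 (G9a) and Ehmt1 (GLP) were higher, with log2 fold changes of 0.64 ± 0.06 and 0.67 ± 0.07, as was Wiz with 0.75, of which 22.8% of exonic bases are overlapped. Without WT replicate 1, 5 of the list were called higher in place of 8.

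The m6A lists were then set beside the RNA. The D395A list holds 38823 peaks, with a smallest -log10 p of 1.3015, of which 5275 reach a -log10 q of 1.3. The WT list holds 48445 peaks, with a smallest -log10 q of 1.3098. The lists thus differ in threshold and in the number of libraries as well as in genotype, which cannot be told apart, and a list has no replicate here, so no test was made between them. Fold enrichment and -log10 values are the authors' own per peak.

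Expressed zinc finger genes more often had an m6A peak in the last exon than other genes, in both lists as deposited. Their share with a D395A peak past the q threshold was close to that of the other genes. In the D395A list 169 members (78.2%) had a peak in the gene body, against 73.7% of the other genes of the same count sum and 52.6% of all tested genes. A D395A peak with a -log10 q of 1.3 or more was found in 58 members (26.9%), where those other genes had 28.3% and all tested genes 17.3%. In the last exon, 72 members (33.3%) had a D395A peak, against 18.6% of those other genes and 14.0% of all tested genes. An exonic D395A peak with a -log10 q of 1.3 or more was found in 18.5% of members and 20.2% of those other genes. The last exon alone was not compared at that threshold. In the WT list 204 members (94.4%) had a peak in the gene body, against 76.6% of the other genes of the same count sum and 66.5% of all tested genes. A WT peak in the last exon was found in 178 members (82.4%), where the other genes had 58.0% and all tested genes 47.8%. Taking the 5275 best peaks of each list by -log10 p, 58 members had a D395A peak and 136 a WT peak.

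The peaks of the members also differed in kind between the lists, as did those of other genes. Of 555 D395A peaks in members 348 (62.7%) lay in introns and 95 (17.1%) in the last exon, with a median fold enrichment of 2.65. Of 550 WT peaks 120 (21.8%) lay in introns and 224 (40.7%) in the last exon, with a median fold enrichment of 6.60. In the other genes of the same count sum 66.0% of D395A peaks and 25.9% of WT peaks lay in introns. Their median enrichments were 2.61 in D395A and 5.53 in WT. Of the members' 81 D395A peaks with a -log10 q of 1.3 or more, 37.0% lay in introns and 28.4% in the last exon. These had a median enrichment of 3.92, so the contrast was smaller at a shared threshold. In the last exon the members' WT peaks had a median enrichment of 9.08, against 6.30 in the other genes of the same count sum. Only 22.7% of the members' D395A peaks overlapped a WT peak, and 19.6% of their WT peaks overlapped a D395A peak.

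Members had longer last exons than other genes. The median length was 2541 bases in members and 1426 bases in other genes of the same count sum, 149 members (69.0%) had a last exon of at least 2000 bases, against 36.7%, and in 169 members it was the longest exon. In members and other genes the share with a peak there was higher for the longest last exons than for the shortest, in both lists. From 1000 to under 2000 bases, 10.0% of 40 members and 15.2% of 2351 other genes had a D395A peak in the last exon, and 87.5% of those members and 61.4% of those other genes a WT peak. With 5000 bases or more, 51.9% of 27 members and 44.4% of 541 other genes had a D395A peak there, and 96.3% and 83.2% a WT peak. Across the 216 members the Spearman correlation of last exon length with the number of WT peaks in it was 0.48, and 0.44 across the other 8829 genes, where a longer exon offers more room for a peak.

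**Figure D4:**
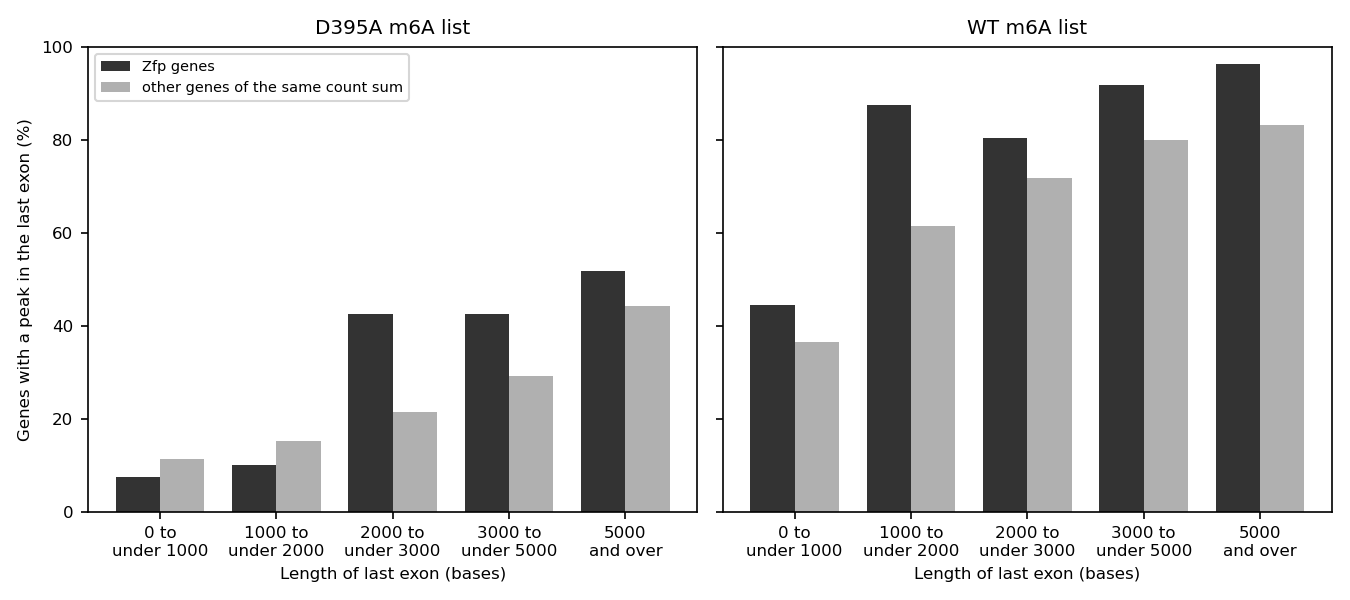
Share of genes with an m6A peak in the last exon by the length of that exon, in the D395A list (left) and the WT list (right), for members (dark bars) and other genes of the same count sum (light bars). In the D395A list members have 10.0% from 1000 to under 2000 bases and 42.6% from 2000 to under 3000 bases, and in the WT list they have 87.5% and 80.3% in these classes.

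Within last exons of at least 2000 bases, summits of D395A peaks in members lay a median of 957 bases into the exon, at 29.2% of its length, against 1545 bases and 37.3% in other genes of the same count sum. Summits of WT peaks lay 938 bases into the exon in members, at 25.9% of its length, against 553 bases and 16.6% in the other genes. In both lists most summits of members were before the middle of the exon (72.0% in D395A and 74.4% in WT), against 59.4% in D395A and 74.5% in WT for the other genes.

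The RNA of members with long and short last exons depended on where the line between them was drawn. Of the 149 members with a last exon of at least 2000 bases 80 (53.7%) were lower and 44 (29.5%) higher, with a median log2 fold change of -0.22. Of the 67 with a shorter one 24 (35.8%) were lower and 26 (38.8%) higher, with a median of 0.07. Other genes of the same count sum were lower in 39.4% and higher in 37.9% with a long last exon, and lower in 43.5% and higher in 31.0% with a short one. With the line at 3000 bases, 42 of 88 long-exon members (47.7%) and 62 of 128 short-exon members (48.4%) were lower, so the difference between them was no longer present. Within clusters the medians were -0.27 for 97 long and -0.28 for 28 short last exons, and among isolated members -0.06 for 52 long and 0.11 for 39 short ones. Across all members the Spearman correlation of last exon length with log2 fold change was 0.01.

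Members were then divided by the list that held a peak in the gene body. The lists were used as deposited, with their unequal thresholds. Peaks were only in the D395A list for 11 members, in both lists for 158, only in the WT list for 46 and in neither for Zfp410. Of the 11 with D395A peaks only, 3 were higher and 8 lower, with a median log2 fold change of -0.77, where the other genes of this class and count sum had a median of -0.21. Of the 158 with both, 40 were higher and 88 lower, with a median of -0.23, against -0.05 in the other genes. Of the 46 with WT peaks only, 27 were higher and 8 lower, with a median of 0.26, against 0.07. Of the other genes of the same count sum, 19.9% were higher and 53.6% lower with D395A peaks only. With both these shares were 34.7% and 41.3%, and with WT peaks only 43.7% and 33.8%. Over all tested genes 36.8% were higher and 34.3% lower, and 12.3% had D395A peaks only and 26.2% WT peaks only. Among members without opposite-strand overlap the class with WT peaks only held 14 higher and 8 lower of 29. An exon overlap in place of the gene body put 91 members in the class with WT peaks only. The classes also depend on the unequal thresholds. With the same q threshold in both lists, 52 of the 158 members with both kept a D395A peak. The class with WT peaks only then held 152 members. RNA calls were not compared between classes at that threshold, so the share of higher members given for WT peaks only holds for the deposited lists alone.

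**Figure D5:**
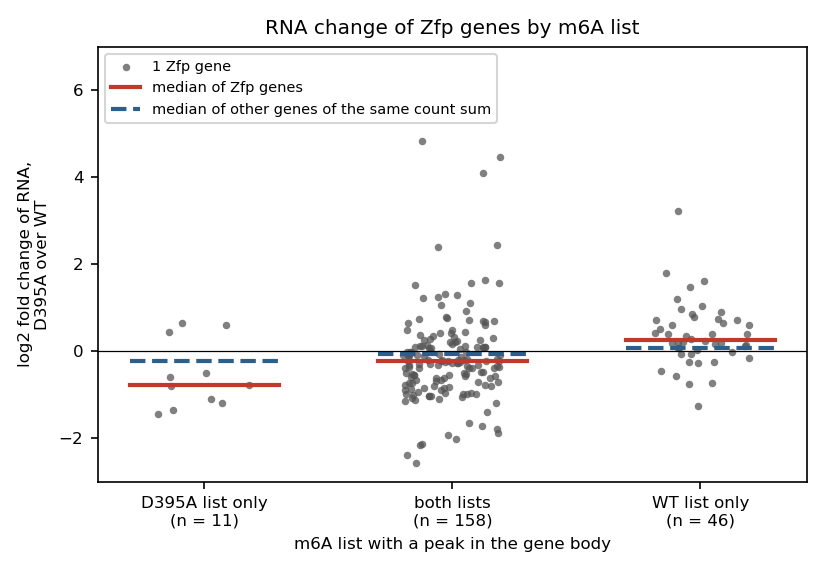
Log2 fold change of RNA, D395A over WT, of each member (grey points) by the m6A list that holds a peak in its gene body, with the median of members (red) and of other genes of the same count sum (blue, dashed). The median of members is -0.77 with D395A peaks only, -0.23 with both and 0.26 with WT peaks only. It is further from 0 than that of the other genes in each class. Of the 11 members with D395A peaks only, 4 are close copies from the chromosome 4 cluster. The classes use the lists as deposited, which differ in threshold.

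The peaks of some members with higher RNA come first, chosen after their values were seen. Zfp703 had no D395A peak and the WT peak of highest enrichment among members, 35.0-fold in its last exon (chr8:26978549-26980424), and its RNA was 9.34-fold higher in D395A. The WT peak touches a second gene body, and peaks carry no strand. Zfp768 had no D395A peak and 1 WT peak, 15.1-fold in its last exon, with RNA 3.47-fold higher. Zfp629 had 1 D395A peak of 2.20-fold in its last exon, with a -log10 q of 0, and 4 WT peaks, 3 of them in its last exon with up to 12.9-fold enrichment, and its RNA was 22.2-fold higher. Zfp618 had 6 D395A peaks, all intronic, and 4 WT peaks, all in its last exon (14.7-fold at most). Zfp30, just above the count sum, had 1 D395A peak of 2.04-fold and 4 WT peaks of up to 33.1-fold, with RNA 2.44-fold higher. The same kinds of peak occurred with lower RNA. Zfp709 had no D395A peak and 5 WT peaks, 4 of them in its last exon and of up to 17.9-fold, with RNA 2.41-fold lower in D395A. Zfp640 had 2 D395A peaks of at most 2.66-fold and 5 WT peaks of at most 10.2-fold.

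Zfp521 had 14 D395A peaks, most of them intronic and none above 4.15-fold, whereas its 4 WT peaks were exonic, the best of them 19.6-fold and 3815 bases wide. Zfp407, a gene with very long introns, had 38 D395A and 11 WT peaks, the most D395A peaks of any member. Its RNA was lower, with 41.6 and 40.9 CPM in D395A and 71.1 and 69.3 CPM in WT. Zfp704 had 13 D395A and 12 WT peaks, Zfp638 12 and 11.

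D395A peaks in the last exon were common in the chromosome 4 cluster, but not only there. All 14 of its members had a D395A peak in the last exon, against 33.3% of all members. Among members with a last exon of at least 2000 bases the share was 44.3%. All 4 members of the chromosome 9 cluster of Zfp26 had such a peak, with RNA higher in 3 and lower in 1. In the lower chromosome 7 cluster between 42.5 and 43.6 Mb 5 of 7 had one. In the chromosome 4 cluster 11 members had a D395A peak with a -log10 q of 1.3 or more, and in the chromosome 9 cluster none. A WT peak was found in 10 of the 14 and in the last exon of 9. Zfp990 had 4 D395A peaks, of which the best lay in the last exon (chr4:145536496-145537306) with 4.59-fold enrichment and a -log10 q of 10.5, and no WT peak, with the RNA 2.30-fold lower in D395A. Zfp987, Zfp534 and Zfp988 likewise had D395A peaks only. Many of these peaks touch the bodies of 2 or more genes, which overlap or contain each other here. With peaks of a single gene body only, 7 of the 14 had a D395A peak and 4 a WT peak. In the chromosome 6 cluster, where RNA was higher, a D395A peak in the last exon was found in 1 of 6 members and a WT peak there in all 6, with up to 23.7-fold enrichment in Zfp746 (chr6:48063073-48065128). Both D395A-only and WT-only assignments among close copies may depend on where reads could be placed, which was not tested.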

How the data were processed

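Per the labels' protocols, RNA was depleted of rRNA and libraries were made with a directional kit, and chromatin RNA was fragmented before the m6A immunoprecipitation. Per the submitters' processing notes, HISAT2 2.1.0, featureCounts 1.6.3 and MACS2 2.1.1 were among the tools and mm10 among the builds. The deposited counts are raw read counts per gene with exon coordinates; the column Da95A_1 was read as D395A replicate 1. The deposited peak lists are in the narrowPeak layout, with the authors' fold enrichment, -log10 p and -log10 q (negative log10 of p- and q-values). The 2 unlabelled columns of the WT list were not used. Of the 56 samples 10 were used; the 34 chromatin immunoprecipitation samples and 12 HEK293T m6A samples were not analysed here.

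Counts were filtered with filterByExpr (17778 of 52459 genes kept), scaled by TMM and compared with the quasi-likelihood test of edgeR 4.0.16 in R 4.3.3, D395A over WT, adjusted by Benjamini-Hochberg over all tested genes (threshold 0.05). CPM uses the scaled library sizes and the biological coefficient of variation was 5.47%. Exons of a gene were merged, and the last exon is the 3′-most. A peak belonged to each gene body it touched by 1 base. The code was tested on simulated data. The members and lists were chosen with earlier results of these data known. Named members are the largest changes, those with most peaks or RNA per kb, the largest change in each direction per cluster, listed roles and those at the count sum; others were chosen after their values were seen. Promoters were matched by symbol. Alternatives were upper quartile scaling, size factors and the Wald test of DESeq2 1.42.0, other count filters, a replicate block, each library left out, other cluster gaps and exon lengths, and other peak thresholds and overlaps. Where 1 library remains in a group, its spread is taken from the other. No genome sequence was at hand, so m6A site motifs were not searched.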

Additional observations from a re-analysis of the deposited data

How the results depend on the processing

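Members called lower numbered 88 to 106 and higher 59 to 81 over the alternatives of the fit. Of 770 values of the 77 named members under 10 such alternatives, 741 kept their side of the threshold, 19 lost the call, 10 gained it and none reversed, over 13 members; Zfp217, Zfp335, Zfp113, Zfp384, Zfp644 and Zfp81 lost theirs without a library. The median log2 fold change ranged from -0.181 to -0.0790 with a library left out, and the corepressors called higher from 5, without WT replicate 1, to 9. With the DESeq2 Wald test 5 members with WT peaks only were lower, and without overlapped members 14 were higher. With a last exon of 3000 bases, 42 of 88 long-exon members were lower, and of 128 short ones 40 were higher and 62 lower, so the higher share of lower calls among long ones was lost; 40 and 82 of the long ones had a D395A and a WT last exon peak. At 1500 bases 14 short ones were higher, and by the longest exon 12 short ones were lower.

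At a -log10 q of 1.3 in both lists, 58 members had a D395A peak, 20 in the last exon (19 of them long), 6 had D395A peaks only and 152 WT peaks only. At 2 these were 35, 15, 14, 5 and 174, and 8 of the chromosome 4 cluster had a D395A peak. By exon overlap 91 had WT peaks only. With the 5275 best peaks of each list, an alternative added after the data were seen, 58 had a D395A peak, 20 in the last exon (19 long), 102 a WT last exon peak (85 long), 22 D395A peaks only, 100 WT peaks only, and 3 of the chromosome 4 cluster a WT peak. With peaks of 1 gene body, also added, 7 and 4 members of that cluster had a D395A and a WT peak. The cause of these shifts was not tested beyond the fewer peaks or genes counted.

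Same-numbered libraries had a correlation of 0.03 in their deviations from the group means, so the numbers were not taken as pairs; with the replicate block 106 members were lower and 71 higher. Depth limits members near the sum of 1000 counts most, and the single D395A m6A library limits every statement on missing D395A peaks.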
